A study of Mus musculus with 3 samples.

Results

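The Hox genes of 4 clusters were examined in lists of Foxp4 and H3K27ac peaks from mouse beige adipocytes. Members were the 39 genes named Hoxa, Hoxb, Hoxc or Hoxd with a number (11, 10, 9 and 9 in clusters A to D), together with every peak whose nearest transcription start site (TSS) belonged to 1 of them. These were 19 of 16937 Foxp4 peaks and 41 of 17564 H3K27ac peaks. Cells of the stromal-vascular fraction of inguinal white fat of C57BL/6 mice were grown with 20% serum for 3 days and on to confluence. Induction lasted 48 h in 10% serum, with the thyroid hormone T3 (50 nM), the PPARγ agonist troglitazone (5 µM), insulin (5 µg/ml), the glucocorticoid dexamethasone (1 µM) and isobutylmethylxanthine, a phosphodiesterase inhibitor (0.5 mM). Afterwards the cells were held in growth medium with T3, troglitazone and insulin. Input DNA, Foxp4 ChIP and H3K27ac ChIP were 1 library each, from cells with the same treatment, and no untreated or undifferentiated cells were compared. The labels name an antibody against Foxp4 in the text for every library and none for H3K27ac, so the H3K27ac library is identified by its title and agent label alone. The labels do not give the number of mice or of cultures. With no replicate, no difference below has a replicate check. A gene without a peak has no peak in these lists, whose depth is unknown, and the mark or factor is not thereby shown to be absent.

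Of fat-cell markers, 6 of 8 (Cd36, Cebpa, Lipe, Lpl, Plin1 and Pparg) had an H3K27ac promoter peak, meaning a peak centre within 1000 bp of the TSS, beside 26.0% of 21031 protein-coding genes. The beige markers gave 1 of 6 (Ebf2), and Ucp1 and Prdm16 had no peak in either list. Promoter H3K27ac peaks were also present at 2 of 6 stromal progenitor markers (Ly6a and Pdgfra) and 1 of 5 macrophage markers (Cd68), and at 0 of 4 endothelial and 0 of 4 skeletal muscle markers. The beige, stromal and macrophage shares (16.7%, 33.3% and 20.0%) were thus near that of all genes. What other cells in the culture contributed to the Hox peaks was not tested.

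Hox proteins are homeodomain transcription factors that give cells their position along the body axis. Their genes lie in 4 clusters in the order of their numbers, low numbers acting anteriorly and high numbers posteriorly, and within a cluster they are transcribed in the same direction. Fat depots keep depot-specific Hox expression after development. Acetylation of lysine 27 of histone H3 (H3K27ac) marks active promoters and enhancers and is mutually exclusive with the Polycomb mark on the same lysine, which covers silent Hox genes. Foxp4 is a forkhead transcription factor. Below, genes 1 to 3 are called anterior, 4 to 8 central and 9 to 13 posterior.

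H3K27ac lay mainly in the middle of cluster C. An H3K27ac peak was assigned to 18 of 39 Hox genes (46.2%, exact Clopper-Pearson 95% interval 30.1 to 62.8), beside 37.5% of 21031 protein-coding genes. The interval covers counting error only, here and below, and neighbouring Hox genes can share an acetylated stretch. Promoter peaks were present at 9 of 39 (23.1%, 11.1 to 39.3), beside 26.0% of all genes, so by this rule the share was near that of genes at large. The rule asks for an assigned peak with a near centre and can miss acetylated starts. It left out Hoxc8, whose broad peak at the start is centred 1853 bp away. It also left out Hoxc5, where the peak that begins just inside the gene is assigned to Mir615. Cluster C had 6 of 9 genes with an assigned peak, cluster A 5 of 11, cluster B 5 of 10 and cluster D 2 of 9. By position, an assigned peak was present at 4 of 8 anterior, 10 of 15 central and 4 of 16 posterior genes. The 4 posterior genes were Hoxa9, Hoxa10, Hoxc9 and Hoxc10.

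The share of acetylated bases set cluster C apart from the others. The window from the first to the last Hox gene was chr15:102921131-103036856 in cluster C (mm10, 115.7 kb), and it held 27 H3K27ac peaks that covered 28.3% of its bases. Cluster A (chr6:52155367-52260880, 105.5 kb) held 8 peaks over 7.73% of bases. Cluster B (chr11:96194316-96368254, 173.9 kb) held 11 peaks over 4.34%. Cluster D (chr2:74668225-74765142, 96.9 kb) held 2 peaks over 1.53%. Over the genome the share was 0.449%, so coverage was 62.9-fold the genome's in cluster C and 3.41-fold in cluster D. The genome was also cut into tiles as long as each window. At least as many H3K27ac peaks were in 14.1% of tiles for cluster D, 0.896% for A, 0.895% for B and 0.00425% for C.

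**Figure D1:**
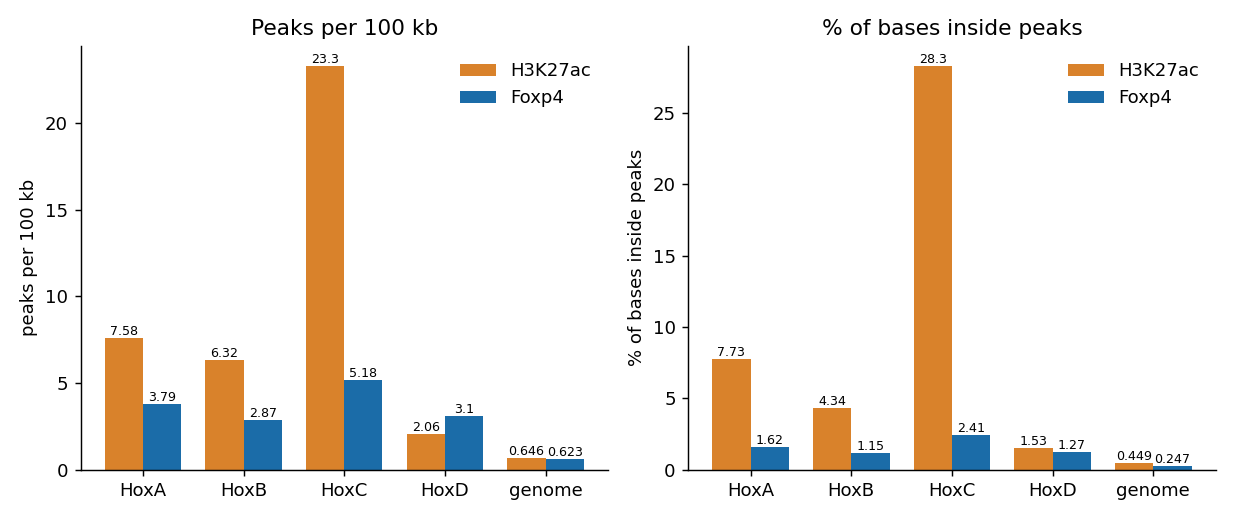
Peaks per 100 kb (left) and % of bases inside peaks (right) in the 4 Hox cluster windows and over the genome, for H3K27ac (orange) and Foxp4 (blue), 1 library each, so without error bars. H3K27ac covered 28.3% of cluster C and 1.53% of cluster D, while Foxp4 covered between 1.15% and 2.41% of each cluster.

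Cluster C held the largest acetylated stretch in the list. Joining H3K27ac peaks less than 5000 bp apart gave 12990 stretches, and the one from upstream of Hoxc10 to Mir615, inside Hoxc5, ranked first in number of peaks and in acetylated bases. It ran over chr15:102960207-103015606 (55.4 kb) with 26 peaks, which covered 31.7 kb (57.2%). The next by acetylated bases held 17 peaks over 23.2 kb at Mir21a, 12 peaks over 21.6 kb at Lncppara and 11 peaks over 13 kb at Zbtb16. Among the higher-scoring 50% of peaks, 17 peaks remained in this interval but as separate pieces, and the piece around Hoxc8 held 4 peaks and ranked 34 by number, a setting chosen after the data were seen.

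**Figure D2:**
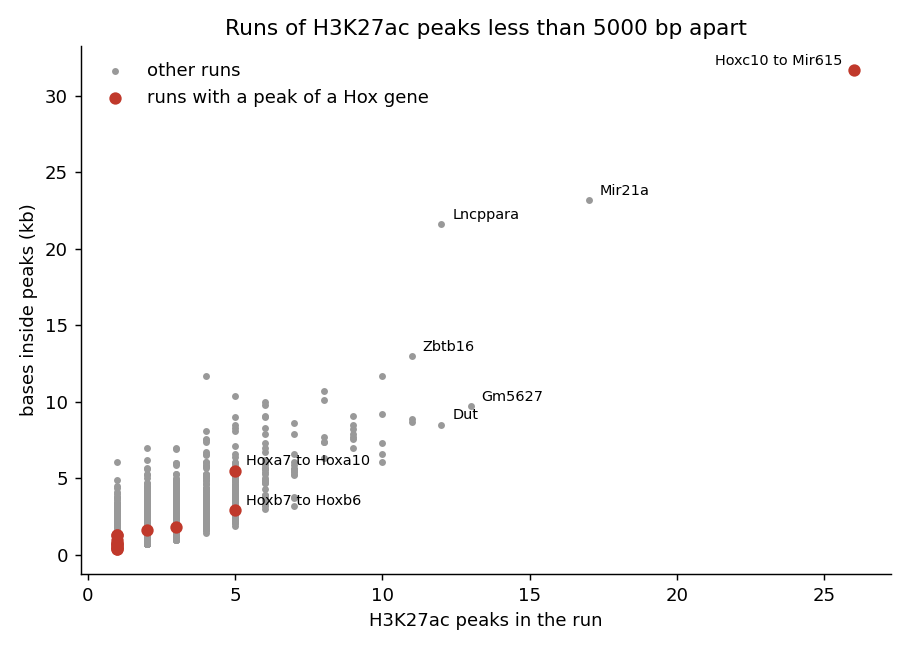
Each point is a stretch of H3K27ac peaks less than 5000 bp apart, placed by its number of peaks and by its bases inside peaks (kb); red points hold a peak assigned to a Hox gene. The stretch from Hoxc10 to Mir615 has 26 peaks and 31.7 kb, and the stretches of clusters A and B with 5 peaks lie among the other stretches.

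The Hox gene starts in the stretch had H3K27ac over most of the surrounding bases. The measure was the share of bases inside H3K27ac peaks within 2500 bp of the start. Some such bases were present at 17 of 39 Hox genes (43.6%, 27.8 to 60.4), beside 32.4% of 16853 genes with a start in the RefSeq promoter table. Only 22 of the 39 Hox genes have a start in that table, so these shares are over unlike gene sets. The share was 69.0% at Hoxc10, 61.3% at Hoxc9, 65.9% at Hoxc8, 60.1% at Hoxc6 and 51.6% at Hoxc5. Coverage of at least 50% was reached at these 5 of 39 Hox genes (12.8%, 4.3 to 27.4), and at 1.04% of those 16853 genes. None of these 5 has a start in the promoter table, so that background does not include them. At Hoxc4, on the anterior side, and at Hoxc11, Hoxc12 and Hoxc13, on the posterior side, the share of bases was 0 around the starts used. For Hoxc4 that was an inner start (chr15:103034395). The annotated gene begins at chr15:103018097, nearer to the stretch, and an H3K27ac peak of 51 lies between these positions. The edge of acetylation at Hoxc4 therefore depends on the start chosen.

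Hoxc8, which specifies thoracic identity, had 6 H3K27ac peaks with scores of 39, 29, 31, 106, 52 and 50 in genomic order. The score is the authors' own value for each peak and is read only within its list, where the median H3K27ac peak scored 40. The peak with 106 (chr15:102990535-102994250) began at the Hoxc8 start, ran through its intron and was 3716 bp wide, at the 96.6th percentile of score and the 99.8th of width. It was both the highest and the widest of the 41 Hox peaks.

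Hoxc10, a posterior gene known for its expression in subcutaneous fat, had 4 peaks with scores of 66, 100, 100 and 41. The peak over its start (chr15:102965175-102968075, 2901 bp) and the one before it (chr15:102961682-102964142, 2461 bp, intergenic) shared the score of 100. Hoxc9 had 3 peaks with scores of 50, 30 and 90. The highest of these lay in its intron at chr15:102977648-102978528, and the peak at the start itself had the 30. Hoxc6 had 4 peaks with scores of 84, 34, 75 and 47. The second highest was over its inner start (chr15:103008260-103010754), and the highest 8698 bp before that start (chr15:102999678-103002051). The annotated gene begins farther out, at chr15:102998226, so the highest peak lay inside it. That outer end lay under the peak of 50 assigned to Hoxc8. Hoxc5 had 2 assigned peaks, with scores of 54 and 43, both upstream of its start. A peak of 66 that begins just inside the gene (chr15:103014088-103015606) is assigned to Mir615. The 5 peaks assigned to Hoxc4 scored 51, 30, 56, 43 and 37, lay 6596 to 35662 bp from its inner start, and 4 of them were beyond the end of the cluster.

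**Figure D3:**
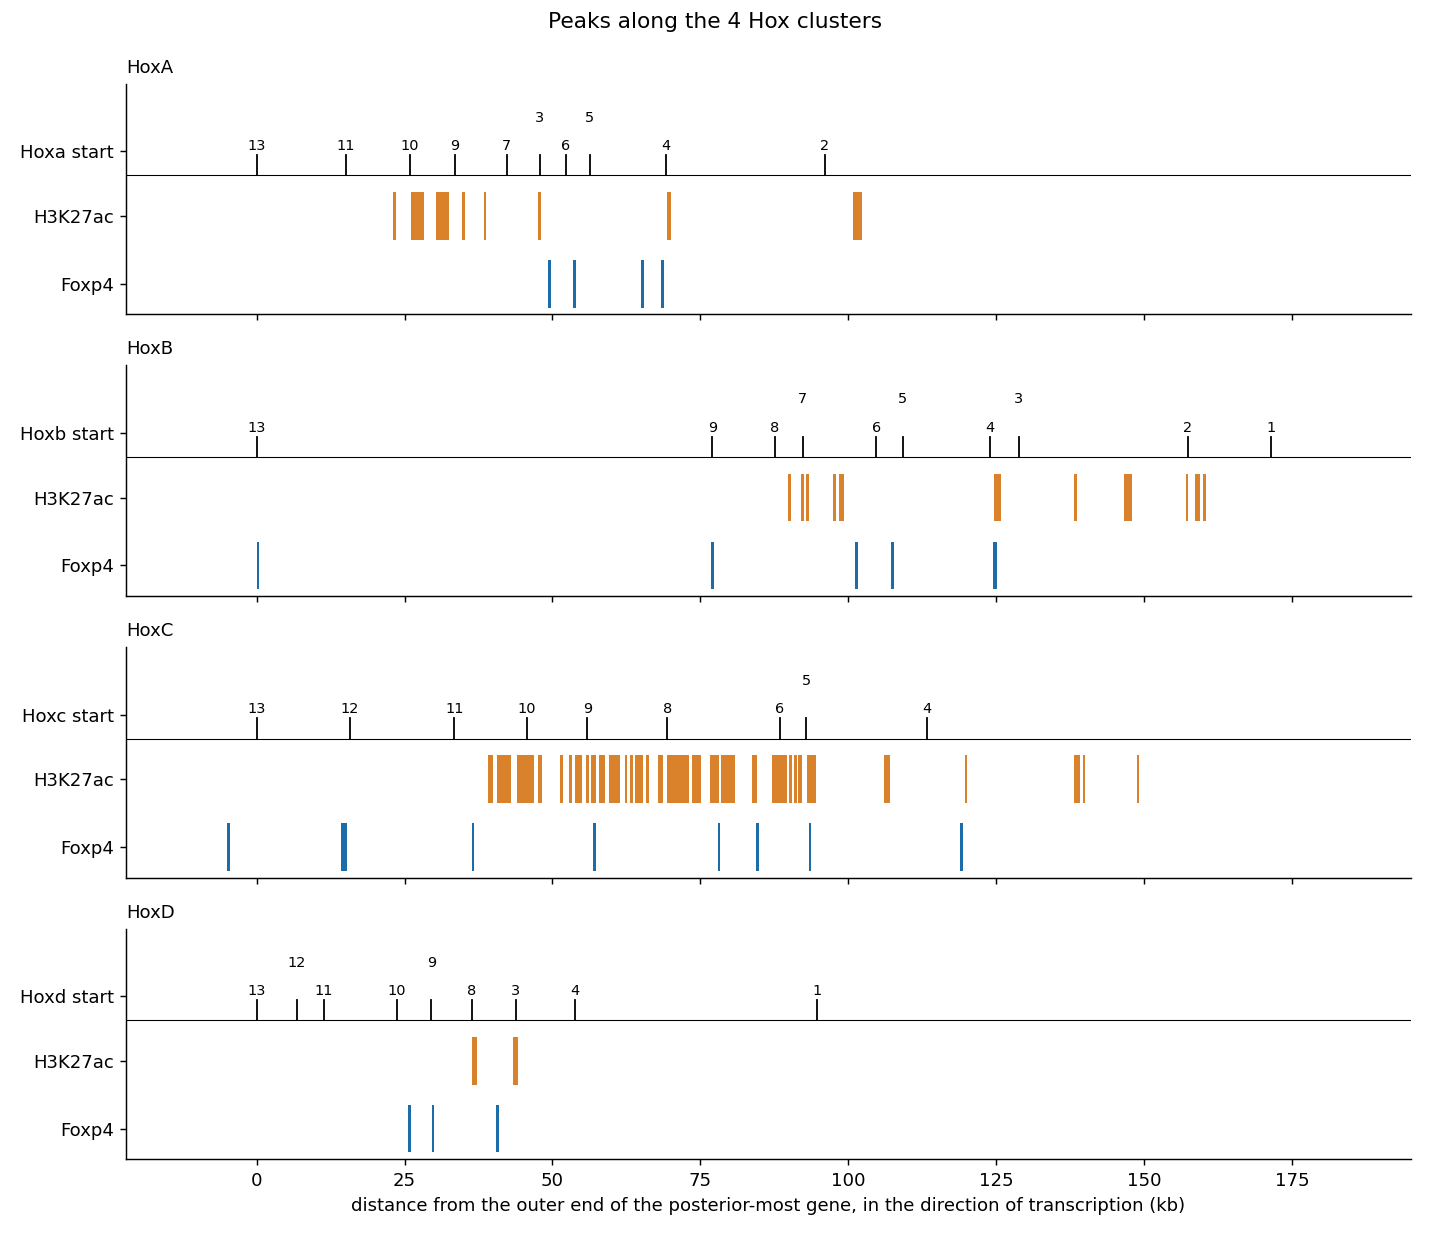
H3K27ac (orange) and Foxp4 (blue) peaks along the 4 clusters, in kb from the outer end of the posterior-most gene, with ticks at the starts of the genes described, labelled by paralogue number (for genes with several starts, 1 is drawn); peaks are drawn with a minimum width so that they can be seen. H3K27ac peaks are packed from Hoxc10 to Hoxc5, and no H3K27ac peak reaches within 2500 bp of the starts of genes 11 to 13.

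In cluster A, H3K27ac fell into a group of peaks and isolated peaks on its anterior side. The group at chr6:52222072-52237826 had 5 peaks over 5.5 kb of 15.8 kb and reached from Hoxa7 to Hoxa10. Its peaks scored 26 (upstream of Hoxa7), 77 (first exon of Hoxa9), 70 (at Mir196b, just before Hoxa9), 44 and 28 (both in Hoxa10). The share of acetylated bases near the start was 40.4% at Hoxa9 and 41.5% at Hoxa10, the highest outside cluster C. Hoxa4 had a peak of 74 in its first exon (13.8% of bases near the start), and Hoxa3 a peak of 39 over the start of its long transcript (9.62%), which lies between Hoxa6 and Hoxa7. The highest H3K27ac peak in any Hox cluster, 111, was assigned to the non-coding gene Hotairm1. At Hoxa2, Hoxa5, Hoxa6, Hoxa7, Hoxa11 and Hoxa13 the share was 0.

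In cluster B, acetylated starts were in the anterior and central genes. Hoxb7 had 4 peaks (48, 34, 37 and 45) and 28.9% of bases near its start, and with the peak of 58 assigned to Hoxb6 these formed a group of 5 peaks over 2.9 kb. Hoxb2 reached 26.1%, Hoxb4 25.1%, Hoxb3 18.2% and Hoxb8 5.1%. Hoxb1, Hoxb5, Hoxb6, Hoxb9 and Hoxb13 were at 0 around the starts used. For Hoxb6 that was an inner start (chr11:96299074). The annotated gene begins at chr11:96292814, inside the peak of 58, so Hoxb6 was not without H3K27ac at its outer end.

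Cluster D had 2 peaks, each near a start. Hoxd8 had a peak of 39 that began just after its start (chr2:74704675-74705392, 14.4% of bases near the start), and Hoxd3 a peak of 58 over its start (chr2:74711603-74712369, 15.3%). The 7 genes Hoxd1, Hoxd4 and Hoxd9 to Hoxd13 had no H3K27ac base within 2500 bp.

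**Figure D4:**
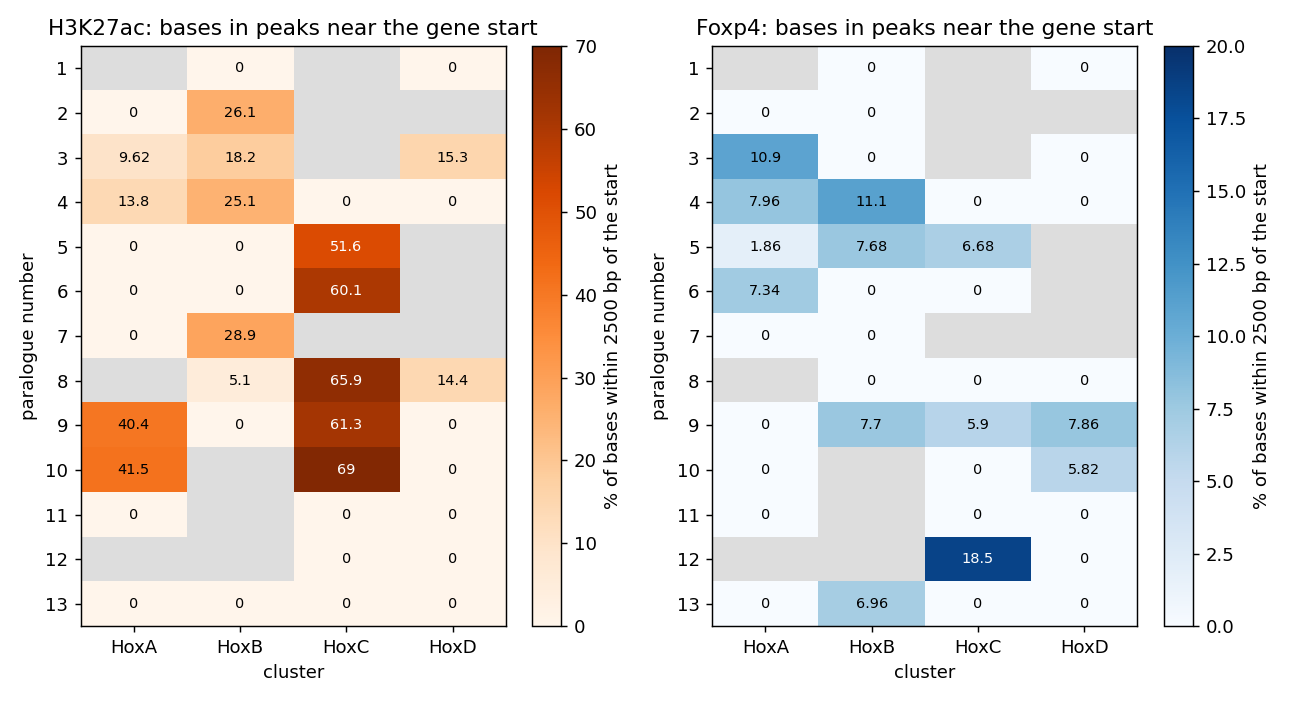
% of bases within 2500 bp of the gene start that lie inside H3K27ac (left) or Foxp4 (right) peaks, by paralogue number (rows) and cluster (columns), on separate colour scales; grey cells hold no value. H3K27ac is highest from Hoxc5 to Hoxc10 (51.6% to 69.0%) and 0 in rows 11 to 13, whereas the highest Foxp4 value, 18.5%, is at Hoxc12.

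Paralogues, which descend from the same ancestral gene and have similar homeodomains, shared a state in some groups and not in others. In group 9, the share of acetylated bases near the start was 61.3% at Hoxc9 and 40.4% at Hoxa9, and 0 at Hoxb9 and Hoxd9. In group 10 it was 69.0% at Hoxc10, 41.5% at Hoxa10 and 0 at Hoxd10. Every member of groups 3 (Hoxa3, Hoxb3 and Hoxd3) and 8 (Hoxb8, Hoxc8 and Hoxd8) had some acetylated bases, from 5.1% to 65.9%. None of the 9 genes of groups 11 to 13 had any.

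The posterior end of a cluster was measured from the outer edge of gene 13 to the first H3K27ac peak. By this definition it holds no such peak, and only its length is a result. These ends measured 23.1 kb in cluster A, 89.8 kb in B, 39.1 kb in C and 36.5 kb in D. In cluster B the large spacing between Hoxb13 and Hoxb9 makes up most of that length. At the anterior ends, measured likewise, the lengths were 3.2, 13.6, 8.7 and 52.8 kb, so in cluster D the anterior end was the longer.

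Sequence before the start was available in the RefSeq promoter table (GRCm38.p6, the assembly of mm10) for 24 starts of 22 of the 39 genes. Of these 24 upstream windows of 250 bases, those of Hoxa3 and Hoxd3 lay wholly inside an H3K27ac peak and the other 22 held no base of one. None of the 24 overlapped a Foxp4 peak. The table held no start of Hoxa4, Hoxb2, Hoxb7, Hoxc6, Hoxc9 or Hoxc10, which had an H3K27ac promoter peak. Hoxc5 and Hoxc8 were missing too, so the windows leave out most acetylated Hox promoters. The 2 acetylated windows are shown with that of Hoxa13, a posterior gene with no peak in either list. Hoxa13 had the highest GC share of the 24 windows, and the lowest, at Hoxd4 (40.4%, 3 CG), was also without acetylation. The windows shown are examples and give no contrast of base composition by acetylation. Capitals mark CG dinucleotides, which are frequent at Hox promoters, and each sequence reads 5′ to 3′ on the gene's strand and ends at the base before the start. They are Hoxa3 at chr6:52213068-52213317 (minus strand), Hoxd3 at chr2:74711743-74711992 (plus strand) and Hoxa13 at chr6:52260881-52261130 (minus strand).
Hoxa3: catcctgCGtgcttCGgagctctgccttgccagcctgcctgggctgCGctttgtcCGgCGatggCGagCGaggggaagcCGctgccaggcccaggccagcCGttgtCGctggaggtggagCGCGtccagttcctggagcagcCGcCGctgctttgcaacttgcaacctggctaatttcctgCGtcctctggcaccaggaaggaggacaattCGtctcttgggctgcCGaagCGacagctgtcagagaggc
Hoxd3: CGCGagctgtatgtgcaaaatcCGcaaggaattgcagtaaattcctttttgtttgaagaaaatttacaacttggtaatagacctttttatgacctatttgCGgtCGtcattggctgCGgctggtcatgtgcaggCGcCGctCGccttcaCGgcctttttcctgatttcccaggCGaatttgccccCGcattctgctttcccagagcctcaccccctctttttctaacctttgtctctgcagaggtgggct
Hoxa13: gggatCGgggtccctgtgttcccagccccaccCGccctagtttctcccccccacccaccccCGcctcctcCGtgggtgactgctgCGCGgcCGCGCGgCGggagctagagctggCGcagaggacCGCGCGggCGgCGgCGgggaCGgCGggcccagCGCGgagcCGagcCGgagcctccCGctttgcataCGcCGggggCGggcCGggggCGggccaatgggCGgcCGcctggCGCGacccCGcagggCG
The Hoxa3 window had 64.8% G and C with 18 CG, the Hoxd3 window 49.2% with 12 CG, and the Hoxa13 window without acetylation 80.0% with 35 CG. Over the 24 windows the GC share ranged from 40.4% to 80.0% with a median of 58.6%, beside 56.0% over 20488 promoters, and the median number of CG was 12.5 beside 10.0. The forkhead motif TGTTTAC, searched on both strands, was in 0 of 24 windows and in 2.55% of all. TATTTAC was in 1 (Hoxa2) beside 2.38%, and TGTTTGC in 1 (Hoxa2) beside 3.87%. TGATTNAT, a motif of Hox and Pbx pairs, was in 2 (Hoxd11 and Hoxa2) beside 2.47%. These are matches of letters and not binding sites.

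Foxp4 peaks were present in all 4 clusters, and also in the posterior ends without H3K27ac of clusters B, C and D. A Foxp4 peak was assigned to 18 of 39 Hox genes (46.2%, 30.1 to 62.8), beside 36.6% of all genes, and a promoter peak to 6 of 39 (15.4%, 5.86 to 30.5), beside 6.77%. The intervals for all 39 genes include both background shares. The genes with a promoter peak were Hoxa4, Hoxb4, Hoxb9, Hoxb13, Hoxc12 and Hoxd9. They were 4 of 16 posterior (7.27 to 52.4%), 2 of 15 central (1.66 to 40.5%) and 0 of 8 anterior genes (0 to 36.9%). The intervals by position overlap, so no preference for posterior genes was shown. Counted by peaks, 6 of 19 (31.6%, 12.6 to 56.6) had their centre within 1000 bp of the TSS, beside 9.48% of the Foxp4 list. Within 2500 bp of the start, Foxp4 peak bases were present at 13 of 39 genes (33.3%, 19.1 to 50.2), beside 11.3% of the 16853 genes. Of the 39, only 22 are in that background set. Hox genes are closely spaced, so that 1 peak can count for neighbouring starts, as at Hoxa5 and Hoxa6.

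By cluster, 7 of 9 Hoxc genes had a Foxp4 peak, 5 of 10 Hoxb, 3 of 11 Hoxa and 3 of 9 Hoxd genes. The windows held 4, 5, 6 and 3 Foxp4 peaks in clusters A to D, or 3.79, 2.87, 5.18 and 3.1 peaks per 100 kb beside 0.623 over the genome. Of those 18 peaks, 17 were assigned to Hox genes and 1 to Mir615. Foxp4 density thus varied less between clusters than that of H3K27ac, which ran from 2.06 to 23.3 peaks per 100 kb. The posterior ends without H3K27ac, 188.5 kb in sum, held 6 Foxp4 peaks, 2 each in clusters B, C and D and 0 in A, nearest to Hoxb13, Hoxb9, Hoxc12, Hoxc11, Hoxd10 and Hoxd9. The anterior ends, 78.3 kb in sum, held 0, and the 225.3 kb between held 12.

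Foxp4 scores at Hox genes were modest. They ranged from 21 to 45 with a median of 29, in a list with a median of 27 and a maximum of 1357. The highest was 45 at Hoxd9 (chr2:74697833-74698225), in the 5' UTR of its first exon 266 bp from the TSS and at the 94.3rd percentile of the list. Hoxd9, a posterior gene, had no H3K27ac peak, and the nearest lay 6449 bp from this Foxp4 peak. Hoxa4 had a peak of 41 in its promoter (chr6:52192140-52192537), 612 bp from the H3K27ac peak in its first exon, and another of 27. The peaks of Hoxc11 and Hoxc12 scored 34, those of Hoxc4, Hoxc6 and Hoxc9 33, and that of Hoxc8 30. The Hoxc12 peak (chr15:102935455-102936379) was 925 bp wide, at the 99.2nd percentile of width, and the next widest were 556 bp at Hoxb4, 544 bp at Hoxa3, 543 bp at Hoxd3 and 498 bp at Hoxc4.

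Many Foxp4 peaks in the deposited list share a few scores. The values 21, 27, 34, 41, 49 and 57 each recur far more often than neighbouring values and together make up 73.1% of the list. Of the 19 Hox peaks, 11 had such a score (57.9%, 33.5 to 79.7). The remaining 8 were at Hoxb4, Hoxb5, Hoxb6, Hoxc4, Hoxc6, Hoxc8, Hoxc9 and Hoxd9. Of these 8, only the Hoxd9 peak lay in a posterior end without H3K27ac. Without peaks at recurrent scores, promoter peaks were left at 2 Hox genes, Hoxb4 and Hoxd9. The origin of the recurrent scores was not tested.

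**Figure D5:**
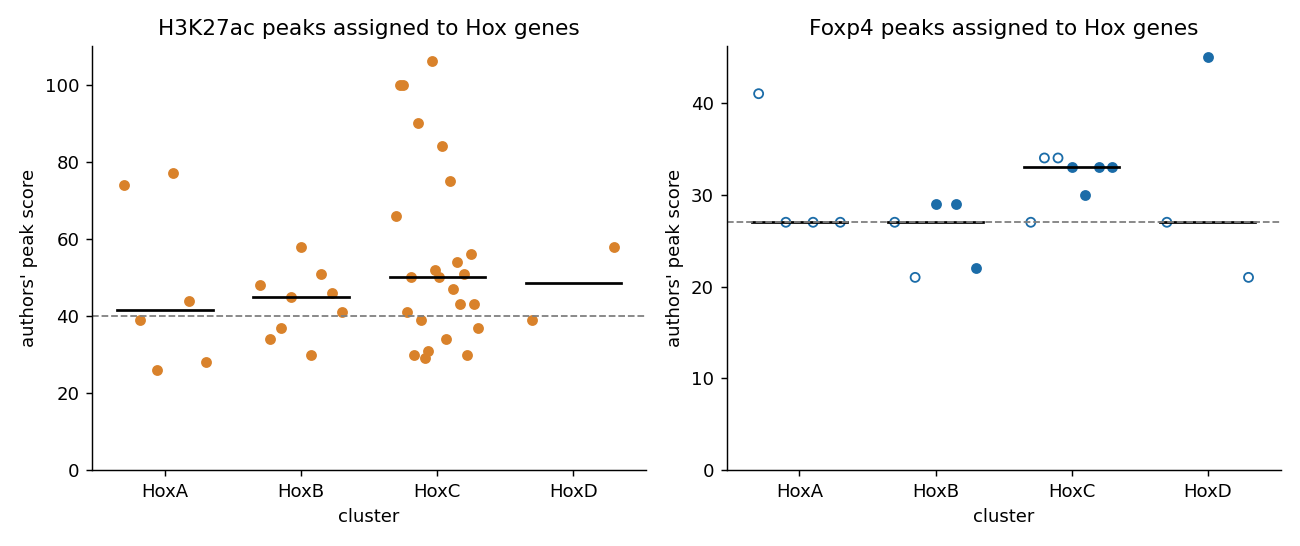
Authors' peak scores of H3K27ac (left) and Foxp4 (right) peaks assigned to Hox genes, by cluster; points are peaks, bars are cluster medians, dashed lines are the medians of the whole lists (40 and 27), and open circles are Foxp4 peaks at recurrent scores. Scores of the 2 lists are not comparable. H3K27ac scores of 84 and above occur in cluster C, and the highest Foxp4 score is 45 at Hoxd9.

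Foxp4 and H3K27ac peaks shared bases at 4 of the 19 Foxp4 peaks of Hox genes (21.1%, 6.05 to 45.6), beside 8.21% of all Foxp4 peaks. The interval includes that share. Hoxc9's Foxp4 peak lay entirely inside the intronic H3K27ac peak of score 90 (295 bp). Hoxb4's shared 524 bp, 94.2% of its length, with an H3K27ac peak over the first exon and intron. Those of Hoxc8 and Hoxc6 met the edge of an H3K27ac peak over 108 and 133 bp, or 30.3% and 27.6% of their length. None of the 4 had a recurrent score. Of H3K27ac peaks at Hox genes, 4 of 41 (9.76%, 2.72 to 23.1) shared bases with Foxp4, beside 7.91% of the whole list. Although 9 genes had a peak in both lists (23.1%, beside 20.4% of all genes), at Hoxa3, Hoxa4, Hoxb6, Hoxc4 and Hoxd3 the peaks lay apart, by 221 bp (Hoxc4) to 2454 bp (Hoxd3).

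The position of peaks relative to genes was compared with each list as a whole. Of Foxp4 peaks at Hox genes, 6 of 19 (31.6%, 12.6 to 56.6) were annotated to exons, UTRs or gene ends, beside 4.83% of the list. Of H3K27ac peaks, 6 of 41 (14.6%, 5.57 to 29.2) were, beside 9.25%. Intergenic peaks made up 5 of 19 Foxp4 peaks (26.3%), beside 45.2%, and 16 of 41 H3K27ac peaks (39%), beside 27.2%. The promoter class of the annotation held 3 of 19 Foxp4 peaks (15.8%), at Hoxa4, Hoxb9 and Hoxc12, beside 6.12%. It held 8 of 41 H3K27ac peaks (19.5%), beside 16.9%. Introns held 5 of 19 Foxp4 peaks (26.3%), beside 43.5%, and 11 of 41 H3K27ac peaks (26.8%), beside 45.8%. Hox genes are short and dense, and how far gene density sets these shares was not tested.

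Of the 48 H3K27ac peaks in the windows, 11 were assigned to non-coding genes. Hotair, a long non-coding RNA between Hoxc11 and Hoxc12 known for repressing HoxD genes in trans in human cells, had no peak. Its gene (chr15:102944062-102947946) was 12261 bp from the nearest H3K27ac peak and 7683 bp from the nearest Foxp4 peak. Hotairm1, a long non-coding RNA of cluster A, held the H3K27ac peak of 111, and Hoxb3os a peak of 52 at its start and another of 28. Gm36878, inside Hoxc9, had 4 peaks, up to 92. Hottip and Hoxa11os at the posterior end of cluster A, Hoxaas2, and Haglr in cluster D had no assigned peak and overlapped none.

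The microRNA genes of the clusters were acetylated in clusters A and C. Their sequences are shown because the same or nearly the same mature RNA is encoded at sites with and without a peak, and miR-615 because its gene had a peak in both lists. The miR-196 genes lie before the group 9 genes and are known to target Hoxb8, and the miR-10 genes lie near the group 4 genes. Mature sequences are from RefSeq (GRCm38.p6), with the seed, bases 2 to 8, in capitals.
mmu-miR-196a-5p: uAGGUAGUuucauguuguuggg
mmu-miR-196b-5p: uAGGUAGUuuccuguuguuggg
mmu-miR-10a-5p: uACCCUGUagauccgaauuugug
mmu-miR-10b-5p: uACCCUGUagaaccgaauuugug
mmu-miR-615-3p: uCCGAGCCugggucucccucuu
The 2 miR-196 forms share the seed and differ by C12A, counted from the 5′ end with miR-196b as the reference. The 2 miR-10 forms share another seed and differ by A12U, with miR-10b as the reference. Mir196b (chr6:52230081-52230165, cluster A) lay under an H3K27ac peak of 70. Mir196a-2 (chr15:102973350-102973434, cluster C) lay between peaks of 49 and 39, the nearer 427 bp away. Mir196a-1 (chr11:96265164-96265265, cluster B), which encodes the same mature miR-196a-5p, was 18886 bp from the nearest. Mir10a was 1605 bp and Mir10b 13701 bp from an H3K27ac peak, with none assigned. Mir615, inside Hoxc5, had an H3K27ac peak of 66 that held the whole of a Foxp4 peak of 27 (334 bp).

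The flanking homeobox genes had no acetylated peak. Evx1 and Evx2, which flank clusters A and D beyond gene 13, had no H3K27ac peak, the nearest lying 75672 and 43155 bp away. Foxp4 peaks were present near Evx1, with 3 assigned to its antisense gene Evx1os (34, 34 and 27). Of coding genes farther out, Snx10 (3 H3K27ac peaks, up to 82), Mtx2 (3, up to 34), Snx11 (34) and Cbx5 (36) had an H3K27ac promoter peak. Hibadh, Skap1, Smug1 and Calcoco1 had no peak in either list.

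Genes whose products act with Hox proteins or on Hox genes were also counted. Of TALE homeodomain cofactors, which bind DNA together with Hox proteins, 8 of 9 had an H3K27ac promoter peak (all but Pbx4), beside 26.0% of all genes, and 3 had a Foxp4 promoter peak (Meis2, Pknox1 and Pknox2), beside 6.77%. Of Polycomb group genes, which keep Hox genes silent, 15 of 21 had an H3K27ac promoter peak, among them Ezh2, Eed, Suz12, Bmi1 and Rnf2, and 2 a Foxp4 promoter peak (Cbx8 and Pcgf2). Of Trithorax group and H3K27 demethylase genes, which oppose Polycomb, 5 of 8 had an H3K27ac promoter peak (Kdm6a, Kmt2a, Men1, Rbbp5 and Wdr5) and 3 a Foxp4 promoter peak (Kmt2a, Rbbp5 and Wdr5). The ParaHox genes, the closest relatives of the Hox genes outside the clusters, had 0 of 6 in both lists. Tbx15, Shox2 and En1, developmental factors expressed in subcutaneous fat, all had an H3K27ac promoter peak, and Tbx15 a Foxp4 promoter peak as well. Differences between these lists were not tested.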

How the data were processed

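The submitters' processing notes list MACS2, Bowtie2, SAMtools, Picard, deepTools 3.3.0 and mm10, and give no settings. Per the file headers, each deposited list is a narrowPeak file of 1 library annotated by HOMER annotatePeaks.pl, with the nearest TSS and the distance from the peak centre to it in bp. The deposited peak score is a whole number of at least 20. Its definition, the calling threshold and the role of the input were not given in those sources. The lists hold no read numbers, so depth is unknown.

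The analysis kept autosomes, X and Y (1 mitochondrial Foxp4 peak was dropped). Overlap was at least 1 bp. Gene ends, and the background of 21031 protein-coding genes, came from RefSeq GRCm38.p6, in which all 39 Hox genes matched. Starts were those implied by the deposited distances or in the RefSeq promoter table, with the best-covered start used. Outer gene ends not among these, as at Hoxb6, Hoxc4 and Hoxc6, were left out. The background for bases near a start has the table's starts alone. A recurrent score had at least 100 peaks and over 3 times those at either neighbouring value. Results for 1 Hox gene, which stays in the counts, are not reported here. The other Hox genes were reported, with set non-coding and flanking neighbours, and, of peaks, mainly the 5 highest-scoring and 5 widest of each list. Members and lists were chosen with earlier results of these data known. Shares have exact Clopper-Pearson 95% intervals, and with 1 library of each kind no test was made. Overlap and coverage code was tested on simulated intervals. Python 3.11.15, numpy 2.4.6, pandas 2.3.3 and scipy 1.17.1 were used. Alternatives were other promoter windows, score limits, overlap and assignment rules, and joining distances.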

Additional observations from a re-analysis of the deposited data

How the results depend on the processing

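Of 24 alternatives, 9 left a count within 1.5 times its value and 15 moved it further. Widening the promoter window from 1000 to 3000 bp raised the Hox genes with an H3K27ac promoter peak from 9 to 15 and with a Foxp4 promoter peak from 6 to 11, and narrowing it to 500 bp left 3 with Foxp4. In the higher-scoring 50% of each list, 5 genes had an H3K27ac and 3 a Foxp4 promoter peak, 10 had any Foxp4 peak, 31 H3K27ac and 9 Foxp4 peaks lay in the windows, 2 of 10 Foxp4 peaks overlapped H3K27ac, and the stretch around Hoxc8 held 4 peaks. Without recurrent scores, 2 genes had a Foxp4 promoter peak, 8 any Foxp4 peak, and 7 Foxp4 peaks lay in the windows. Requiring at least 50% of a Foxp4 peak to be covered left 2 of 19. No share of all genes or peaks is given at these settings. The counts thus show only how far each moved, and not how Hox genes compare with genes at large. Joining peaks less than 2000 bp apart gave 16 peaks around Hoxc8 in 29.6 kb, still the first of 14313 stretches in peaks and acetylated bases. Joining distances were chosen after the data were seen. Unknown depth limits every statement that a gene had no peak. No paired analysis was possible because each library stands alone.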
